A study of Homo sapiens with 14 samples.

Results

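The genes described here are 10 metalloproteases and inhibitors of metalloproteases: ADAMTS1, ADAM9, ADAM10, ADAM17, MMP1, MMP2, MMP14, TIMP1, TIMP2 and TIMP3. They were chosen by name, with earlier results of these data known, so their counts are not those of an unselected set. Every probe set annotated to any of these genes was taken. This gave 20 of the 22215 probe sets tested and 10 of the 11963 genes on the array. All 20 probe sets named 1 gene. TIMP3 and MMP14 had 4 probe sets each, ADAM10 and ADAM17 had 3 each, and the other genes had 1 each.

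Expression was measured on 14 Affymetrix arrays of U2OS, a human osteosarcoma cell line, carrying a stable ER-E2F1 fusion, in which the transcription factor E2F1 is joined to an estrogen receptor domain that responds to 4-hydroxytamoxifen (OHT). Cells received either a lentivirus with a scrambled hairpin (sh-scr) or 1 of 2 lentiviruses, shFOXO33 and shFOXO707, each aimed at both FOXO1 and FOXO3. At 24 h after infection the cells were moved to medium without serum for 24 h, and then kept for 6 h with 20 nM OHT or without it. The groups were sh-scr without OHT (4 arrays), sh-scr with OHT (4 arrays), each hairpin without OHT (1 array each) and each hairpin with OHT (2 arrays each). All 14 arrays therefore came from serum-starved, virus-infected cells that carried the fusion. No array held cells without ER-E2F1, so an effect of E2F1 activity and any other effect of OHT cannot be told apart. The labels do not say whether the line is 1 clone or whether arrays of 1 group came from separate cultures. The p-values therefore cover the spread between arrays alone, and that spread may be technical.

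Metalloproteases use a zinc ion to cut proteins outside the cell or at its surface. The matrix metalloproteases (MMPs) mainly cut collagens and other matrix proteins, the membrane-bound ADAMs release growth factors, cytokines and receptor domains from the cell surface, and the secreted ADAMTS enzymes cut matrix proteoglycans and related proteins. The tissue inhibitors of metalloproteases (TIMPs) bind the active site of these enzymes, and the balance of enzyme and inhibitor governs matrix turnover in bone and in tumours that arise from it.

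TIMP3 fell with OHT on every probe set in scrambled cells, TIMP1 did not pass the test, and all 3 probe sets of ADAM17 fell. The bases before the start sites of these genes are shown because the genes differ in how they responded. Promoter sequences were matched by symbol for 5 of the 10 genes (ADAM10, ADAM17, MMP14, TIMP1 and TIMP3), from RefSeq, GRCh38.p14, and the 250 bases before the annotated start are given 5′ to 3′ on the gene's own strand. Capitals mark matches to the motifs searched. The intervals are chr22:32801455-32801704 (plus strand) for TIMP3, chrX:47582186-47582435 (plus strand) for TIMP1 and chr2:9555831-9556080 (minus strand) for ADAM17.
TIMP3: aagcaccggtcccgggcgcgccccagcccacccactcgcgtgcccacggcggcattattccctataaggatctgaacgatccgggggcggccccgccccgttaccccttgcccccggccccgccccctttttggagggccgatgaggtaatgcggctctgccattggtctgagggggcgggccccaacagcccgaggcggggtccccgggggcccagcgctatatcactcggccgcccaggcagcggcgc
TIMP1: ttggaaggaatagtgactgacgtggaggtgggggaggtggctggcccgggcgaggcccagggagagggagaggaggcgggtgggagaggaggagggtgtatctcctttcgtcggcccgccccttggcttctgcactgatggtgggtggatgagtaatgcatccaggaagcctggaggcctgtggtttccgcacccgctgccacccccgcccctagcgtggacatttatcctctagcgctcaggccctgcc
ADAM17: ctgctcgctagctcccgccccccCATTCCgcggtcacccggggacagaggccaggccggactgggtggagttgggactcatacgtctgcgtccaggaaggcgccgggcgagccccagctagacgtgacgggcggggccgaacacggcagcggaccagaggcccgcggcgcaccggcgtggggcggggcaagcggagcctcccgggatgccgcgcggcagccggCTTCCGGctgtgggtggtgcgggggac

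The TIMP3 stretch held 26 CpG dinucleotides and 72.4% G or C, the TIMP1 stretch 12 and 64.8%, and the ADAM17 stretch 31 and 75.6%. The ADAM10 stretch held 25 and 68.4%, and the MMP14 stretch 7 and 56.8%. The median over all 35116 promoters of the same length was 11 CpG and 58% G or C. Motifs were searched on both strands: TGACTCA for AP-1, which 4.20% of all promoters held, TTTCGCGC, TTTGGCGC, TTTCCCGC, TTTGCCGC or TTTGGGCGC for E2F (2.92%), GTAAACA or ATAAACA for FOXO (6.56%), GGAATG for TEAD (11.9%) and CCGGAAG for ETS (8.52%). Of the 5 stretches, ADAM17 alone held a match: the TEAD letters, read on the other strand as CATTCC, lay 227 to 222 bases before the start, and the ETS letters, read as CTTCCGG, lay 27 to 21 bases before it, with no overlap between them. The other 4 stretches held none of these letters in this window.

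The values are MAS5 signals, linear brightness values in arbitrary units scaled to a mean of 500 on every array after the lowest and highest 2% were left out. Differences were computed on log2(signal + 16), which understates the change of dim probe sets, and tested with limma over all 22215 probe sets. Calls were made where the p-value, adjusted by the Benjamini-Hochberg method over all of these probe sets, was under 0.05. Folds are ratios of mean signals, and levels of different probe sets are not comparable. The median signal was 137 to 143 on the 6 arrays without OHT and 114 to 119 on the 8 arrays with OHT, so centring arrays on their median moves every response to OHT up by about 0.23 on the log2 scale. FOXO1 read 92.4 to 112 in scrambled cells without OHT, and 49.2 (shFOXO33) and 39.1 (shFOXO707) in knockdown cells. With OHT it read 456 to 533 in scrambled cells, 140 to 185 with shFOXO33 and 218 to 254 with shFOXO707. FOXO3 read 1736 to 1844, 290 to 325 and 766 to 853 in the same order with OHT, so shFOXO33 left less FOXO3 signal. Without OHT FOXO3 read 415 to 510 in scrambled cells, 138 with shFOXO33 and 274 with shFOXO707. By limma, the knockdown difference without OHT was called for FOXO1 (-0.99, adjusted p = 0.00838) and not for FOXO3 (-1.13, adjusted p = 0.122). Of 8 measured osteoblast markers 6 lay above the filter level, a signal of 79.1 at the 40th percentile, and RUNX2 and IBSP lay below it. Epithelial markers did so for 3 of 7 (EPCAM, KRT8 and KRT18), macrophage and neutrophil protease markers for 1 of 4 (MMP9), blood markers for 0 of 6 and endothelial markers for 0 of 5. The ratio of the 3′ to the 5′ ACTB probe sets, a measure of RNA quality, was 1.95 to 2.04 on the shFOXO707 arrays with OHT and 1.49 to 1.74 on all others. The summed osteoblast markers read 9077 to 11324 on the 3 shFOXO33 arrays and 16041 to 20299 on all others. SPARC carried that gap: with OHT and shFOXO33 it was -3.43 against scrambled cells (adjusted p = 3.21e-14), while COL1A1 was at -0.05 (adjusted p = 0.367) and ALPL was higher by 1.002 (adjusted p = 0.000928). In bulk RNA, fewer cells of a type and less RNA per cell cannot be told apart.

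In scrambled cells, transcripts of an inhibitor and of several enzymes fell with OHT. ADAMTS1 fell 3.11-fold, the 4 TIMP3 probe sets fell 1.78-fold to 3.75-fold, ADAM17 fell on all 3 probe sets, and ADAM10, MMP14 and MMP2 fell on at least 1 probe set. In all, 13 of 20 member probe sets, from 6 genes, were called, all lower, where 45.4% of all probe sets were called and 29.2% were called lower. The median log2 difference was -0.55 over the 20 probe sets and -0.14 over all probe sets tested. The groups did not overlap for 15 of the 20, against 49.5% of all probe sets. With arrays centred on their medians, 10 were called lower and 1, TIMP2, higher. Over all probe sets 5291 were then called higher and 4000 lower, against 3604 and 6485 without centring. Among all calls the share called higher thus rose from 35.7% to 56.9% (44.6% with quantile normalization). In these cells the ACTB ratio averaged 1.54 without OHT and 1.65 with OHT, with ranges that did not overlap, the summed osteoblast markers 19820 to 20299 and 17212 to 18070, and the summed epithelial markers 6901 to 7421 and 5257 to 5557. The sums followed COL1A1 (-0.44, adjusted p = 2.45e-06) and KRT18 (-0.57, adjusted p = 0.0614), while MSX2 rose by 2.03 (adjusted p = 2.38e-09) and EPCAM by 0.59 (adjusted p = 0.000904). The part of these shifts in the responses to OHT was not tested.

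**Figure D1:**
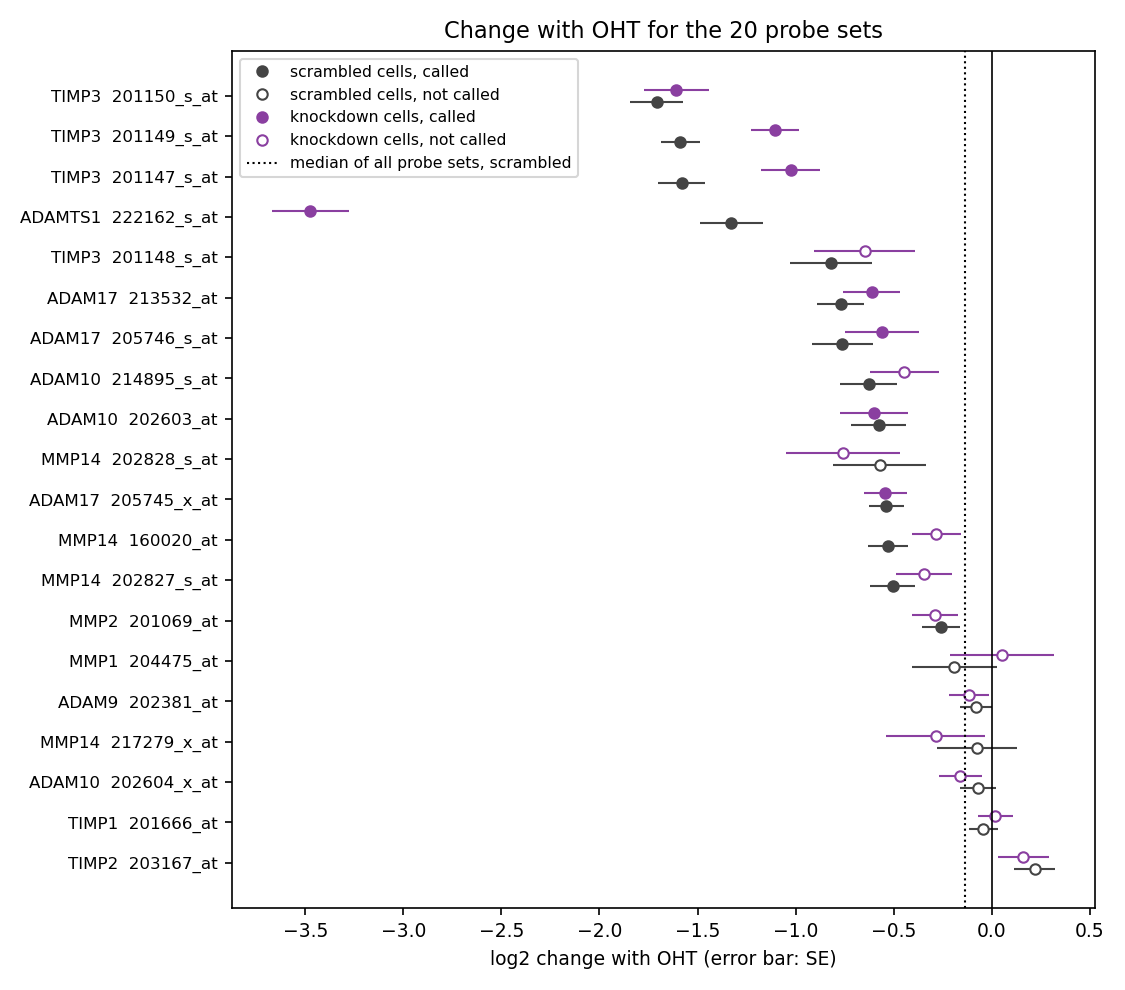
Response to OHT of the 20 member probe sets in scrambled and in knockdown cells, as log2 differences with OHT minus without on the log2(signal + 16) scale, with bars for the standard error. Filled points were called, open points were not, and the dotted line is the median over all probe sets (-0.14). The TIMP3 probe sets lie between -1.71 and -0.65 and ADAMTS1 reaches -3.47 in knockdown cells.

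TIMP3 is the TIMP that binds to the extracellular matrix, and it is known as an inhibitor of ADAM17 as well as of MMPs. Its brightest probe set (201149_s_at) read 868, 899, 893 and 942 in scrambled cells without OHT and 294, 267, 296 and 300 with OHT. All 4 arrays with OHT lay below all 4 without it, 3.11-fold lower on the means, and the log2 difference was -1.59 ± 0.10 (SE; adjusted p = 7.9e-09). The probe set 201147_s_at read 500, 543, 455 and 550 without OHT and 158, 154, 155 and 174 with it, a difference of -1.58 ± 0.12 (adjusted p = 6.42e-08). The dimmest, 201150_s_at, went from 252 to 313 down to 60.3 to 88.5, a difference of -1.71 ± 0.13 (adjusted p = 8.7e-08). The probe set 201148_s_at fell less, from 360, 345, 335 and 431 to 182, 160, 306 and 179, by -0.82 ± 0.21 (adjusted p = 0.00508), and 1 array with OHT, replicate 3, lay close to the arrays without OHT. All 4 TIMP3 probe sets thus separated the groups, and their log2 values correlated with each other at r = 0.67 to 0.96 over the 14 arrays, which share the contrast with OHT.

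**Figure D2:**
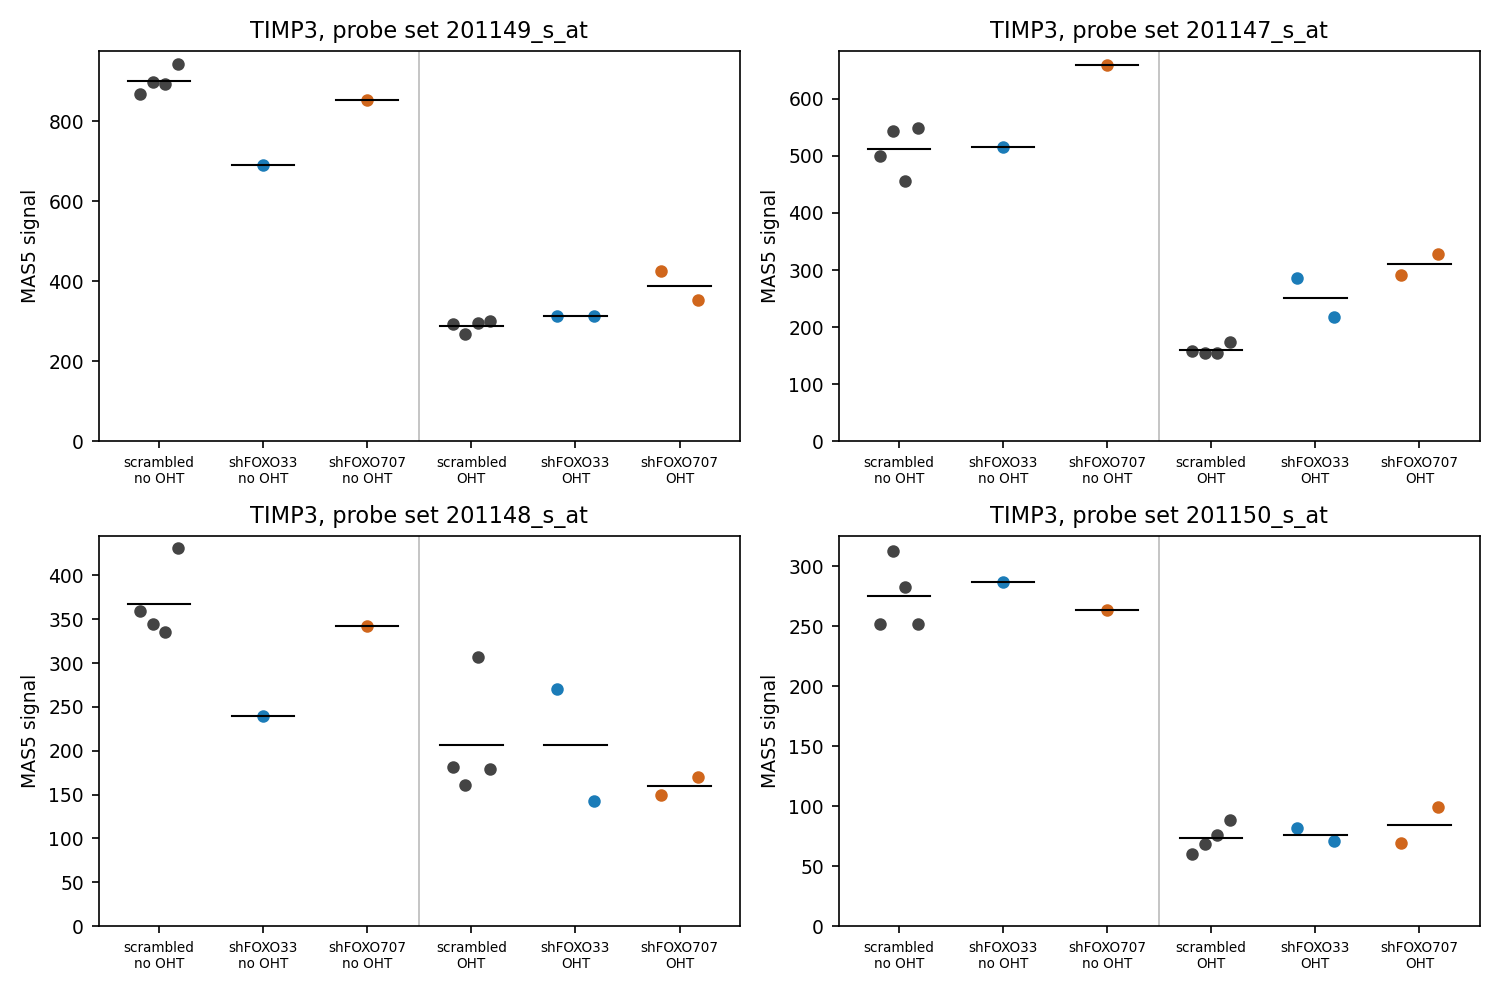
MAS5 signal of the TIMP3 probe sets on each array (points) by group, with the group mean as a black line. Signals with OHT lie below those without OHT in scrambled cells on all 4 probe sets, and on 201147_s_at the knockdown arrays with OHT (217 to 329) lie above the scrambled arrays with OHT (154 to 174).

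The other inhibitors did not follow TIMP3. TIMP1, a soluble inhibitor of most MMPs, read 17891, 19365, 18705 and 20176 without OHT and 19189, 17338, 19252 and 18123 with OHT in scrambled cells. The groups overlapped, and the difference of -0.04 ± 0.07 did not pass (adjusted p = 0.681). Quantile normalization turned it to 0.14 (adjusted p = 0.0205). TIMP2, which inhibits MMP2 and also takes part with MMP14 in its activation at the cell surface, read 1124, 1146, 1227 and 1199 without OHT and 1323, 1343, 1350 and 1459 with it. These groups did not overlap and all arrays with OHT were higher, but the difference of 0.22 ± 0.11 was not called (adjusted p = 0.113). It was called with the hairpins fitted apart (adjusted p = 0.00342) and with median centring (0.44, adjusted p = 0.00351).

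ADAMTS1, a secreted protease that cuts versican and aggrecan, read 129, 128, 128 and 111 in scrambled cells without OHT and 46.8, 35.6, 35.5 and 41.8 with OHT. The groups were far apart relative to their spread: the mean fell from 124 ± 8.62 (SD, n = 4) to 39.9 ± 5.44 (SD, n = 4), 3.11-fold lower, and the log2 difference was -1.33 ± 0.16 (adjusted p = 7.92e-06). Every ADAMTS1 signal with OHT lay below the filter level of 79.1, and the log2 difference was -1.62 with a pseudocount of 1 and -0.86 with a pseudocount of 64.

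ADAM17, the protease that releases TNF and several EGF receptor ligands, fell on all 3 probe sets. On 213532_at the signals were 1072, 1067, 1070 and 1058 without OHT and 572, 607, 653 and 649 with OHT, a difference of -0.77 ± 0.12 (adjusted p = 8.88e-05). On 205745_x_at they were 464, 563, 521 and 507 against 355, 373, 304 and 364 (-0.54 ± 0.09, adjusted p = 0.00015). The groups were separate on both, and on 205746_s_at, where the mean fell from 202 to 112, by -0.76 ± 0.15 (adjusted p = 0.00085).

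ADAM10, which cuts Notch receptors and the amyloid precursor protein at the cell surface, gave different answers from different probe sets. The brightest, 202603_at, read 4036, 3185, 3353 and 3173 without OHT and 2367, 2222, 2265 and 2296 with it, with no overlap (-0.58 ± 0.14, adjusted p = 0.00363). The dim 214895_s_at fell as well, from 277, 315, 274 and 264 to 196, 182, 158 and 174 (-0.63 ± 0.14, adjusted p = 0.00237). The third, 202604_x_at, overlapped between the groups at 1280 to 1464 without OHT and 1150 to 1393 with it, and its difference was -0.07 ± 0.09 (adjusted p = 0.578). In Affymetrix naming, the ending _x_at marks probes that can match other transcripts. The log2 values of 202603_at and 202604_x_at correlated at r = 0.45 over the 14 arrays, and those of 202603_at and 214895_s_at at 0.84. Centring arrays on their medians ended the call of 202603_at (adjusted p = 0.0603). ADAM9, another membrane-bound ADAM, stayed at 3593 to 3811 without OHT and 3398 to 3654 with it, overlapping groups with a difference of -0.08 ± 0.08 (adjusted p = 0.483).

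MMP14, the membrane-bound collagenase that activates MMP2, fell on 160020_at from 594, 555, 632 and 593 to 458, 334, 414 and 428 (-0.53 ± 0.10, adjusted p = 0.000648), with no overlap. On 202827_s_at it fell from 209, 218, 178 and 191 to 136, 119, 144 and 143 (-0.51 ± 0.12, adjusted p = 0.00233), a call that median centring and quantile normalization ended (adjusted p = 0.0698 and 0.0766). The groups were also separate on 202828_s_at, where the difference of -0.57 ± 0.24 did not pass (adjusted p = 0.0651). The fourth, 217279_x_at, overlapped (-0.07 ± 0.20, adjusted p = 0.81), and its log2 values correlated with those of the other MMP14 probe sets at r = -0.20 to 0.19. MMP2, or gelatinase A, read 3737, 3579, 3533 and 3652 without OHT and 2852, 3035, 3018 and 3218 with it. All arrays with OHT were lower, by -0.26 ± 0.10 (adjusted p = 0.0387), but the call did not outlast median centring (-0.03, adjusted p = 0.825) or a fit with no trend in the variance prior (adjusted p = 0.0732). It was also lost on leaving out any 1 of 7 arrays, all 4 scrambled arrays without OHT and replicates 1 to 3 with OHT, with adjusted p up to 0.101. MMP1, the interstitial collagenase, read 0.691 to 18.1 over the 14 arrays, below the filter level on each. It was the only one of the 20 probe sets whose mean lay below that level, and its difference of -0.19 with OHT did not pass (adjusted p = 0.52).

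In knockdown cells the same question was asked with 2 arrays without OHT, 1 from each hairpin, and 4 with OHT. TIMP3, ADAMTS1 and ADAM17 fell here too. The fall of ADAMTS1 was larger than in scrambled cells, from a higher level without OHT to a like level with OHT. The calls were 8 of 20 probe sets from 4 genes, all lower, where 33.8% of all probe sets were called and 21.4% were called lower. The median log2 difference was -0.49 over the 20 and -0.14 over all probe sets. Centring on medians left 5 called lower and 1 higher. Over all probe sets 4103 were then called higher and 2694 lower, against 2760 and 4754 without centring. Among all calls the share called higher thus rose from 36.7% to 60.4%.

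ADAMTS1 read 593 with shFOXO33 and 472 with shFOXO707 without OHT, and 34.3, 19.4 (shFOXO33), 41.6 and 40.5 (shFOXO707) with OHT. The mean of the hairpin arrays went from 532 to 34.0, 15.7-fold lower, and the log2 difference was -3.47 ± 0.20 (adjusted p = 7.84e-09). By hairpin it was -3.85 (22.1-fold) for shFOXO33 and -3.10 (11.5-fold) for shFOXO707. The difference between the responses of knockdown and scrambled cells, the interaction, was -2.15 ± 0.26 (adjusted p = 0.00756). It lay mostly in the level without OHT, where knockdown cells, with 1 array for each hairpin, were higher by 1.96. With OHT the means were 34.0 in knockdown and 39.9 in scrambled cells (limma, -0.18, adjusted p = 0.557). The interaction is therefore not separate from the difference without OHT. ADAMTS1 was the only member of the 20 probe sets called in the interaction, where 0.122% of all probe sets were called and 0.081% were called lower. With either hairpin alone the interaction was -2.52 (shFOXO33, adjusted p = 0.00138) and -1.77 (shFOXO707, adjusted p = 0.00566), and it was called under every alternative run, with adjusted p between 0.000267 and 0.031. With OHT all ADAMTS1 signals lay below the filter level, and the response in knockdown cells was -3.98 with a pseudocount of 1 and -2.60 with a pseudocount of 64.

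**Figure D3:**
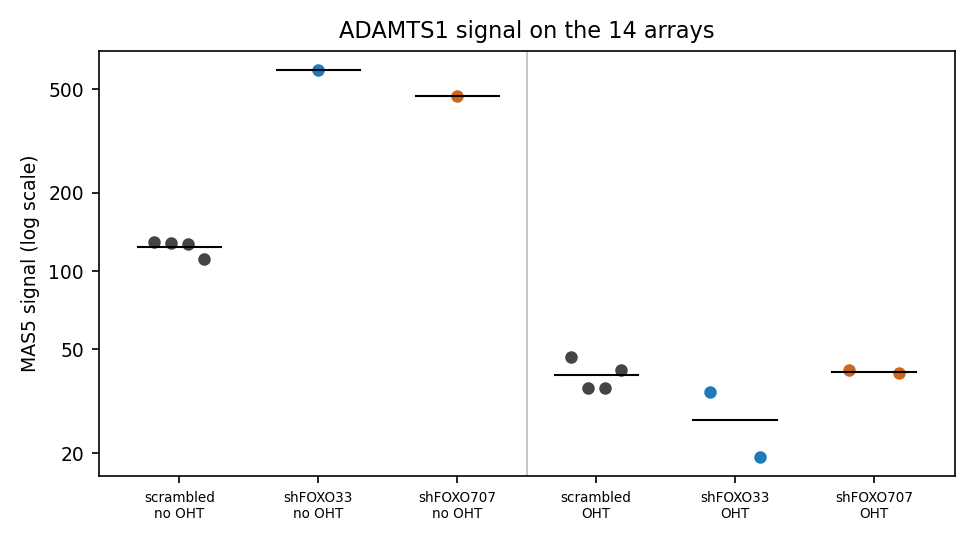
MAS5 signal of ADAMTS1 on each array (points) by group, with the group mean as a black line. Without OHT the hairpin arrays (593 and 472) lie above the scrambled arrays (111 to 129), and with OHT all 8 arrays lie between 19.4 and 46.8.

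TIMP3 kept a fall in knockdown cells on 3 probe sets. On 201149_s_at the signals were 690 (shFOXO33) and 854 (shFOXO707) without OHT against 313, 313, 425 and 352 with it, a difference of -1.11 ± 0.12 (adjusted p = 5.92e-06). The falls on 201147_s_at (-1.03 ± 0.15, adjusted p = 7.47e-05) and 201150_s_at (-1.61 ± 0.16, adjusted p = 2.88e-06) were also called, and that on 201148_s_at was not (-0.65 ± 0.26, adjusted p = 0.0691). The interaction was 0.48 on 201149_s_at (adjusted p = 0.389) and 0.55 on 201147_s_at (adjusted p = 0.431). With the hairpins fitted apart the first of these was called (adjusted p = 0.0173), as it was with shFOXO33 alone (adjusted p = 0.0407) but not with shFOXO707 alone (adjusted p = 0.103).

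ADAM17 fell on 213532_at from 1390 (shFOXO33) and 1015 (shFOXO707) to 894, 920, 644 and 668 (-0.61 ± 0.15, adjusted p = 0.00454). It fell on 205745_x_at from 609 and 614 to 433, 456, 391 and 383 (-0.54 ± 0.11, adjusted p = 0.00122). On 205746_s_at the fall of -0.56 ± 0.19 was called (adjusted p = 0.0332), but the call was lost on leaving out any 1 of 5 arrays, with adjusted p up to 0.199. Without the shFOXO33 array without OHT the call on 213532_at was lost as well (adjusted p = 0.103), as it was with median centring (adjusted p = 0.065). ADAM10 fell on 202603_at (-0.60 ± 0.17, adjusted p = 0.0147). The hairpins differed here, with -0.99 for shFOXO33 and -0.21 for shFOXO707, and the call was lost without the shFOXO33 array without OHT (adjusted p = 0.102) and with median centring (adjusted p = 0.124). The other ADAM10 probe sets (-0.45 and -0.16), MMP2 (-0.29), the 4 MMP14 probe sets (-0.76 to -0.28), ADAM9 (-0.11), TIMP1 (0.02) and TIMP2 (0.16) did not pass, with adjusted p from 0.06 to 0.916.

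Knockdown was compared with scrambled cells first without OHT, with 1 array for each hairpin. ADAMTS1 was higher, and 1 ADAM10 probe set and TIMP2 were lower. These were the 3 of 20 probe sets called, 1 higher and 2 lower, where 3.16% of all probe sets were called, 1.76% higher and 1.4% lower. The median was -0.06 over the 20 and 0.03 over all probe sets. Comparisons of knockdown with scrambled cells without OHT and of OHT within either kind of cell share arrays, so they are not independent of each other.

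ADAMTS1 read 593 and 472 on the hairpin arrays and 111 to 129 on the scrambled arrays, 4.29-fold higher on the means. The difference was 1.96 ± 0.20 (adjusted p = 8.46e-05), and each hairpin array was above every scrambled array, 4.77-fold (shFOXO33) and 3.80-fold (shFOXO707) over the scrambled mean. ADAM10 on 202604_x_at read 594 and 783 against 1280 to 1464, a difference of -0.98 ± 0.11 (adjusted p = 0.000273). The other ADAM10 probe sets were not called, at -0.57 (adjusted p = 0.113) and -0.17 (adjusted p = 0.738). TIMP2 read 709 and 943 against 1124 to 1227, with no overlap (-0.51 ± 0.13, adjusted p = 0.0479). That call was lost in 10 of the 14 fits that left out 1 array, and without the shFOXO33 array the difference was -0.31 (adjusted p = 0.338). The 4 TIMP3 probe sets lay between -0.34 and 0.19 and did not pass. TIMP1 read 16711 and 14654 against 17891 to 20176, with no overlap, and did not pass (-0.28, adjusted p = 0.122). None of the ADAM9, ADAM17, MMP1, MMP2 or MMP14 probe sets was called. The summed osteoblast markers read 11324 on the shFOXO33 array and 19277 on the shFOXO707 array against 19820 to 20299. Over the hairpin arrays SPARC averaged 5257 against 9164, a difference that was not called (limma, -1.14, adjusted p = 0.594). The means of SPP1 (391 against 193) and MSX2 (235 against 210.0) were not lower, and neither was that of ALPL. The summed epithelial markers read 7342 on the shFOXO33 array and 4863 on the shFOXO707 array against 6901 to 7421. The part of these markers in the differences was not tested.

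With OHT, knockdown cells had lower ADAM10 signal on 1 probe set, lower TIMP2 and higher TIMP3 on 1 probe set than scrambled cells. The calls were 3 of 20, 1 higher and 2 lower, where 10.1% of all probe sets were called, 6.1% higher and 3.95% lower, and the median was 0.10 over the 20 and 0.04 over all. The groups did not overlap for 7 of the 20, against 16.7% of all probe sets. Both hairpins had 2 arrays here, and arrays of the same hairpin counted as separate replicates, so the values of each hairpin are given beside the pooled call.

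ADAM10 on 202604_x_at read 1385, 1150, 1252 and 1393 in scrambled cells, 632 and 558 with shFOXO33, and 623 and 625 with shFOXO707. The hairpin arrays held 47.1% of the scrambled mean (-1.06 ± 0.09, adjusted p = 6.63e-06), and both hairpins fell by a like amount, -1.10 (adjusted p = 1.43e-07) and -1.03 (adjusted p = 4.41e-07). The other ADAM10 probe sets differed by hairpin. On 202603_at shFOXO33 (1634 and 1565) was below the scrambled arrays (2222 to 2367; -0.51, adjusted p = 0.000158), while shFOXO707 (2474 and 2548) lay above them without being called (0.13, adjusted p = 0.277). On 214895_s_at shFOXO33 was lower (-0.61, adjusted p = 0.00177) and shFOXO707 was not called (-0.17, adjusted p = 0.398). Averaged over its 3 probe sets, the ADAM10 difference was -0.55 with OHT (adjusted p = 0.00219), and without it -0.57 (adjusted p = 0.016). The largest part came from 202604_x_at (-1.06 with OHT and -0.98 without), whose ending marks probes that can match other transcripts. With the hairpins pooled, 202603_at (-0.19 and -0.17) and 214895_s_at (-0.39 and -0.57) were not called.

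TIMP2 read 1323, 1343, 1350 and 1459 in scrambled cells with OHT, 811 and 812 with shFOXO33, and 1129 and 951 with shFOXO707. All hairpin arrays were below all scrambled arrays, at 67.6% of the scrambled mean (-0.57 ± 0.11, adjusted p = 0.00349). Both hairpins were lower, by -0.74 (adjusted p = 1.23e-06) and -0.40 (adjusted p = 0.000614).

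**Figure D4:**
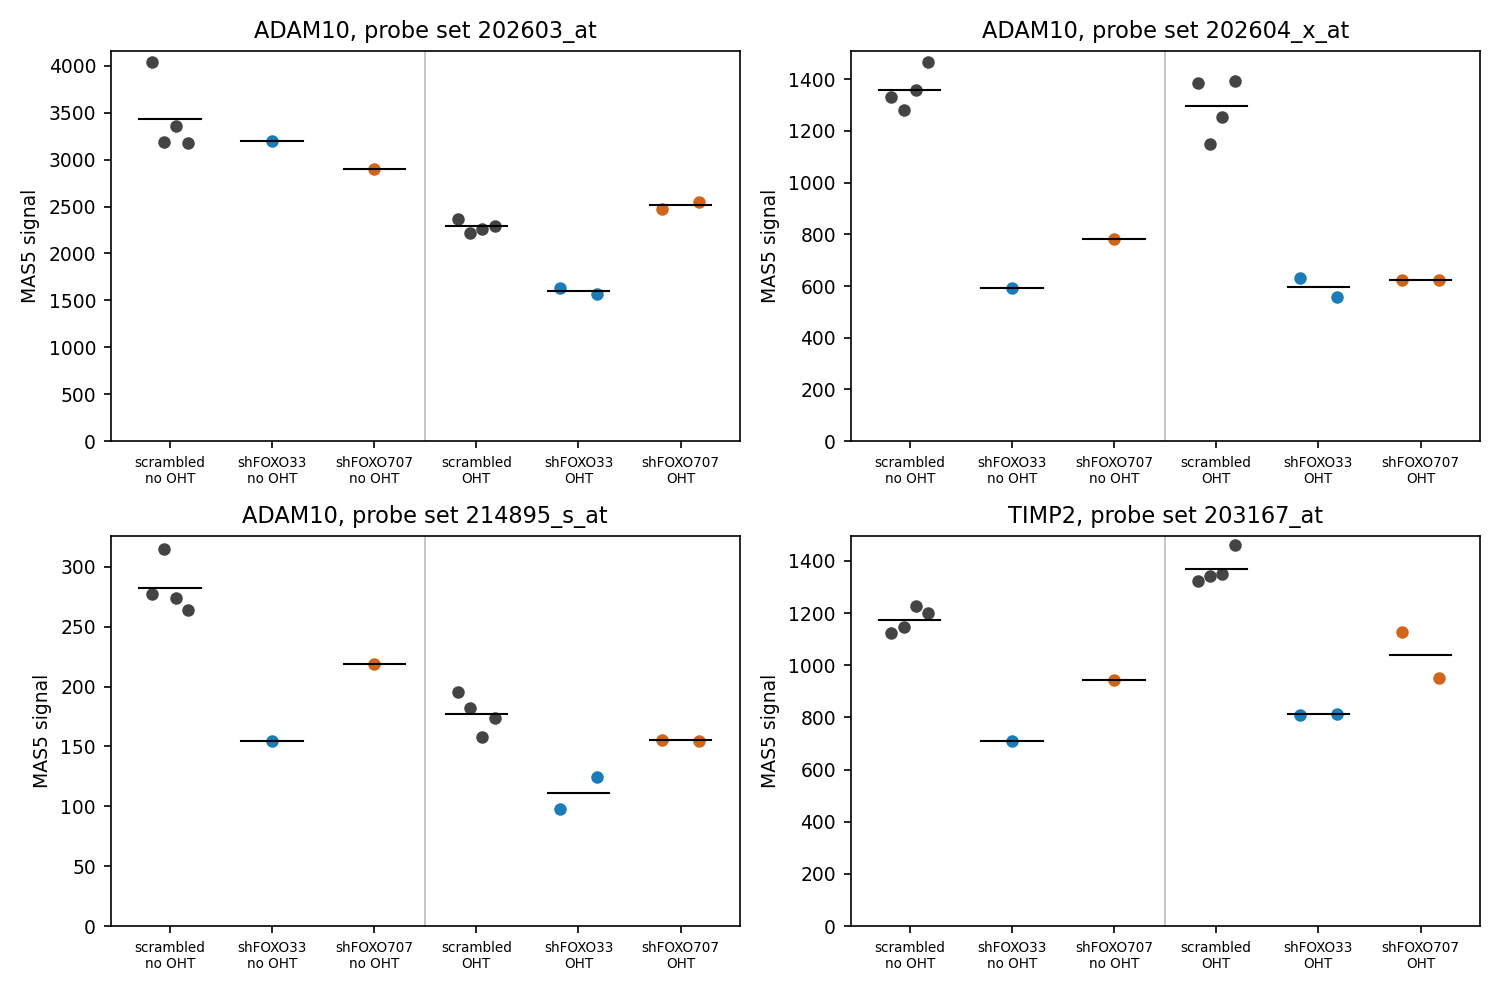
MAS5 signal of the ADAM10 probe sets and of TIMP2 on each array (points) by group, with the group mean as a black line. On 202604_x_at the hairpin arrays (558 to 783) lie below every scrambled array (1150 to 1464) with and without OHT, and on 202603_at with OHT the shFOXO33 and shFOXO707 arrays lie on opposite sides of the scrambled arrays.

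TIMP3 on 201147_s_at read 158, 154, 155 and 174 in scrambled cells with OHT, 286 and 217 with shFOXO33, and 292 and 329 with shFOXO707. The hairpin arrays were 1.75-fold higher (0.74 ± 0.12, adjusted p = 0.00143), and both hairpins were called, at 0.59 (adjusted p = 0.00105) and 0.89 (adjusted p = 4.49e-05). The other 3 TIMP3 probe sets were not called: 201149_s_at was 0.26 higher with no overlap (adjusted p = 0.13), 201150_s_at 0.11 (adjusted p = 0.711) and 201148_s_at -0.16 (adjusted p = 0.715). On 201149_s_at shFOXO707 alone was called (0.40, adjusted p = 0.00174) and shFOXO33 was not (0.11, adjusted p = 0.359). TIMP1 read 17098, 16094, 16744 and 13642 on the hairpin arrays against 17338 to 19252, below all scrambled arrays, and the difference of -0.22 ± 0.07 did not pass (adjusted p = 0.0726). It was called with quantile normalization (-0.33, adjusted p = 0.000334) and with dim probe sets left out (adjusted p = 0.0368). By hairpin, TIMP1 was called with shFOXO707 (-0.29, adjusted p = 0.0112) and not with shFOXO33 (-0.15, adjusted p = 0.155). The ADAM17 probe sets were 0.22 to 0.31 higher and did not pass (adjusted p = 0.109 to 0.454), and neither did ADAM9, ADAMTS1, MMP2 or MMP14.

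The hairpins, aimed at the same pair of genes, were compared with each other under OHT, as shFOXO707 minus shFOXO33. Of the 20 probe sets, 9 from 7 genes were called, 6 higher and 3 lower with shFOXO707, where 22% of all probe sets were called, 11.1% higher and 11% lower. Against scrambled cells, 10 of the 20 were called with shFOXO33 (25.3% of all probe sets) and 5 with shFOXO707 (20.5%). The groups of 2 arrays did not overlap for 15 of the 20 and for 56.3% of all probe sets.

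ADAM10 on 202603_at was higher with shFOXO707 by 0.65 ± 0.09 (adjusted p = 7.38e-05), and MMP2 by 0.33 ± 0.06 (adjusted p = 0.00162), from 2423 and 2635 to 3319 and 3026. ADAM17 on 213532_at was lower with shFOXO707 by -0.46 ± 0.07 (adjusted p = 0.00013), from 894 and 920 to 644 and 668. ADAM9 was lower by -0.34 ± 0.05 (adjusted p = 0.000108), from 4234 and 4289 to 3385 and 3351. Against scrambled cells these genes were called with shFOXO33 and not with shFOXO707: ADAM17 on 213532_at at 0.54 (adjusted p = 6.88e-06) and 0.08 (adjusted p = 0.403), ADAM9 at 0.27 (adjusted p = 0.0002) and -0.07 (adjusted p = 0.333), and MMP2 at -0.26 (adjusted p = 0.00268) and 0.07 (adjusted p = 0.497). TIMP2 was higher with shFOXO707 by 0.35 ± 0.08 (adjusted p = 0.00432), a call lost without shFOXO707 replicate 1 with OHT (adjusted p = 0.0703).

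The remaining hairpin calls were less stable. TIMP3 on 201149_s_at (0.29, adjusted p = 0.0314) lost its call in 3 fits that left out 1 array, with adjusted p up to 0.311. ADAM10 on 214895_s_at (0.44, adjusted p = 0.0396) lost it in 6 such fits, with adjusted p up to 0.295. MMP14 was called in opposite directions on 202828_s_at (0.86, adjusted p = 0.0175) and 217279_x_at (-0.62, adjusted p = 0.0473), and these lost their calls in 2 and 9 such fits. ADAMTS1 (0.44, adjusted p = 0.161) and TIMP1 (-0.13, adjusted p = 0.322) did not pass. The ACTB ratio (1.95 to 2.04 with shFOXO707, 1.60 to 1.63 with shFOXO33), the summed osteoblast markers (16041 to 17106 and 9077 to 9280), the summed epithelial markers (3589 to 3683 and 5941 to 6292) and the FOXO3 signal all differed between the same arrays. The members of these lists did not move together: as shFOXO707 minus shFOXO33, SPARC was at 3.29, COL1A1 at 0.02 and ALPL at -1.29, and KRT18 was at -1.07 and EPCAM at 0.24. Their part in the hairpin differences was not tested.

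**Figure D5:**
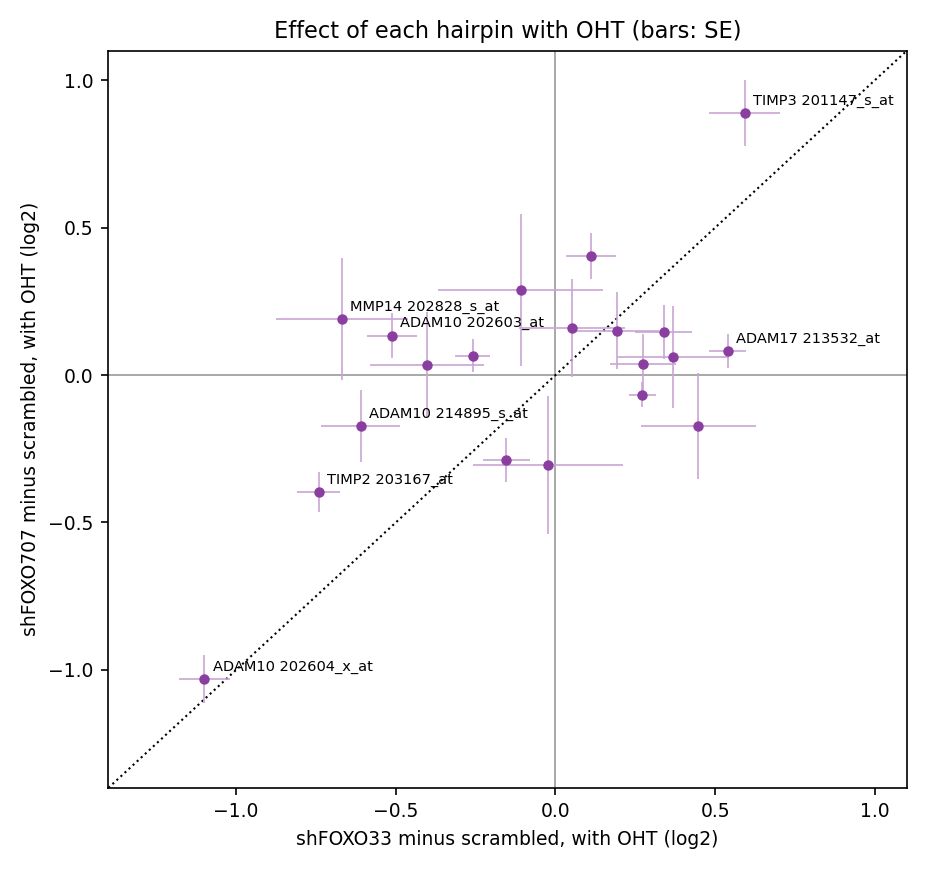
Effect of each hairpin against scrambled cells under OHT for the member probe sets, shFOXO33 on the x axis and shFOXO707 on the y axis, as log2 differences with bars for the standard error. The dotted line marks equal effects, and probe sets past 0.5 in either direction with either hairpin are named. ADAM10 on 202604_x_at (-1.10 and -1.03) lies near that line, and ADAM10 on 202603_at (-0.51 and 0.13) lies away from it.

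Other genes of the same families and their partners were counted with 1 probe set a gene, the one with the highest mean. Each list is given as genes called higher and lower with OHT in scrambled cells, with the number of its members above the filter level. Called genes below that level are counted too. Over all probe sets 16.2% were called higher and 29.2% lower, and the counts are to be read against these shares. Among 18 other MMP genes, 7 of them above the filter level, 2 were higher and 2 lower. MMP15, a membrane-type MMP, rose from 34.2 to 388 (3.02 ± 0.15, adjusted p = 5.99e-10) and passed the filter level only through the groups with OHT, MMP24 rose by 0.47 (adjusted p = 0.0242), and MMP19 fell by -0.63 (adjusted p = 0.00274). Among 14 other ADAM genes, 5 above the filter level, 2 were higher and 1 lower, with ADAM22 at 1.22 (adjusted p = 5.51e-06) and ADAM15, whose means without OHT lay below the filter level, at 0.58 (adjusted p = 0.00408). Among 12 other ADAMTS and ADAMTSL genes, 4 above the filter level, 3 were higher and 2 lower, with ADAMTSL3 at 1.69 (adjusted p = 4.67e-09) and ADAMTS2, a procollagen protease, at 0.73 (adjusted p = 0.000179). The medians of these lists were -0.08, 0.12 and 0.03, against -0.14 over all probe sets.

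Regulators of these enzymes (25 of 28 listed genes measured, 19 above the filter level) had 7 members higher and 9 lower. Of all probe sets 45.4% were called in either direction. TSPAN5, a tetraspanin that carries ADAM10 through the cell, rose from 706 to 3708 (2.37 ± 0.08, adjusted p = 6.88e-12). FURIN, which removes the prodomain of MMP14 and the ADAMs, rose by 1.02 (adjusted p = 5.38e-07), and PLAU, the urokinase that starts plasmin-driven proteolysis, fell by -1.72 (adjusted p = 1.86e-07). Proteins shed by ADAM10 or ADAM17 (32 of 36 measured, 21 above the filter level) had 8 higher and 5 lower. TNFRSF1A, a TNF receptor, fell from 1289 to 119 (-3.28 ± 0.09, adjusted p = 1.46e-12). JAG1, a Notch ligand, rose by 2.19 (adjusted p = 2.37e-11), and NOTCH2 fell by -1.52 (adjusted p = 3.05e-10). Matrix proteins (19 of 21 measured, 14 above the filter level) had 1 higher and 2 lower. These were LAMB1 at 0.41 (adjusted p = 3.46e-05), COL1A1 at -0.44 (adjusted p = 2.45e-06) and COL3A1 at -0.24 (adjusted p = 0.00492). AP-1, ETS and related factors (15 measured, 12 above the filter level) had 6 higher and 4 lower. Among those higher were ATF3, whose mean rose from 296 to 608 (adjusted p = 7.02e-07), ETV5 at 0.80 (adjusted p = 1.53e-05) and JUND at 0.62 (adjusted p = 3.28e-05). The medians of these 4 lists were -0.14, -0.09, 0.06 and 0.12.

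In the comparison of knockdown with scrambled cells under OHT, 10.1% of all probe sets were called, and 23.3% had an unadjusted p under 0.05. By limma with the hairpins pooled, the other MMP and ADAMTS genes had 0 called, with 2 and 1 genes at an unadjusted p under 0.05. The other ADAM genes had 1 called, ADAM12, whose mean was 292 in scrambled cells and 508 in knockdown cells (0.77 ± 0.10, adjusted p = 0.000253). The regulators had 2 higher, FURIN at 0.68 (adjusted p = 0.000463) and PLAUR, the urokinase receptor, at 0.84 (adjusted p = 0.0137). The shed proteins had 5 higher and 2 lower, with NOTCH2 at 0.97 (adjusted p = 1.58e-06) and NRG1, an ERBB ligand, at -0.69 (adjusted p = 0.00265). The matrix proteins had 1 higher, TNC at 0.73 (adjusted p = 0.000104), and 2 lower, among them FBN1 at -0.33 (adjusted p = 0.014). The factors had 2 higher and 1 lower, with ETV4 at 1.05 (adjusted p = 0.000193) and ATF3 at -0.37 (adjusted p = 0.0256). The medians were 0.03, -0.07 and 0.01 for other MMP, ADAM and ADAMTS genes, then -0.03, 0.06, -0.12 and -0.17 for the 4 lists of partners, against 0.04 over all probe sets. With the hairpins apart, genes of these families were called. With shFOXO33 the other MMP genes had 1 higher and 1 lower, ADAM genes 2 and 2, and ADAMTS genes 0 and 2 (25.3% of all probe sets called). With shFOXO707 these were 2 and 1, 1 and 0, and 1 and 1 (20.5%). Without OHT, and with the hairpins pooled, 3.16% of all probe sets were called between knockdown and scrambled cells, 1.76% higher and 1.4% lower. The knockdown calls there were 1 higher among 14 other ADAM genes, 1 higher among 25 regulators, and 2 higher and 1 lower among 32 shed proteins. The 19 matrix proteins had 1 higher and the 15 factors had 2 higher. Other MMP and ADAMTS genes again had 0 called, with 3 of 18 and 1 of 12 at an unadjusted p under 0.05, against 14.9% of all probe sets.

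The genes most like each member were those with the highest Pearson correlation of log2 values over the 14 arrays, on its brightest probe set, among genes above the filter level. All points share the contrast with OHT, so these values are a description. ADAMTS1 was most like STEAP1 (r = 0.95) and ANTKMT (0.95), and TIMP3 most like POP4 (0.99) and SAP30BP (0.99). ADAM17 was most like SUCLG1 (0.99) and JPT1 (0.99), ADAM10 like HOXB5 (0.97) and CCDC25 (0.96), and ADAM9 like TRIM14 (0.94) and ALPL (0.94). MMP14 was most like CCS (0.95) and INTS12 (0.94), MMP2 like CYTL1 (0.97) and ERGIC2 (0.97), TIMP1 like S100A2 (0.92) and PREB (0.89), and TIMP2 like TMX1 (0.95) and EIF3A (0.92).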

How the data were processed

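Per the submitters' processing notes, the authors made the deposited values with MAS5, as 1 linear intensity per probe set and array. The MAS5 version, detection calls and probe-level values were not given in the sources used here. Array titles gave the groups. Symbols came from the platform annotation, updated through Entrez identifiers with RefSeq GRCh38.p14 for 19052 of the 19064 probe sets that name 1 gene. After 62 of 22277 probe sets were left out as array controls, log2(signal + 16) was fitted in R 4.3.3 by limma 3.58.1, using lmFit and eBayes with a variance trend, over all 14 arrays in 4 groups with the hairpins pooled. Hairpins were compared in a fit with 6 groups. Tests were two-sided, and p-values were adjusted over 22215 probe sets. Among the alternatives, the fit with dim probe sets left out was adjusted over 11438 probe sets, and that of gene means over the genes. No filter was applied in the main fits, where the 40th percentile of mean log2 (6.57) served only to describe levels and to choose named genes.

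All probe sets of the members were named. From each related list up to 3 called genes with the smallest adjusted p for OHT and up to 2 for knockdown with OHT were named, among those above the filter level. The members and lists were chosen with earlier results of these data known. The script was tested on simulated data. Alternatives were pseudocounts of 1 and 64, median centring, quantile normalization, dim probe sets left out, no variance trend, 6 groups, each hairpin alone, the mean of a gene's probe sets, a replicate block and leaving out each array. The number of arrays limits the precision.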

Additional observations from a re-analysis of the deposited data

Results flagged for a closer look

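In groups of 4 arrays, 40 were examined for 1 array far from the others, and 2 held one, where chance gives about 1 in 20. ADAMTS1 in scrambled cells without OHT read 111 on replicate 4 against 128 to 129 on the others. MMP14 on 202828_s_at in scrambled cells with OHT read 92.0 on replicate 4 against 154 to 159.

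The response of ADAMTS1 to OHT differed between knockdown and scrambled cells by an interaction of -2.15 (limma, adjusted p = 0.00756). It lay mostly in the higher level of knockdown cells without OHT (1.96), with 1 array for each hairpin. With OHT knockdown and scrambled cells differed by -0.18 (limma, adjusted p = 0.557).

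The effects of shFOXO707 and shFOXO33 under OHT differed on 9 probe sets, as shFOXO707 minus shFOXO33 (limma, 6 groups). Differences were 0.65 for ADAM10 on 202603_at, 0.44 for ADAM10 on 214895_s_at, -0.46 for ADAM17 on 213532_at and -0.34 for ADAM9. They were 0.86 for MMP14 on 202828_s_at, -0.62 for MMP14 on 217279_x_at, 0.33 for MMP2, 0.35 for TIMP2 and 0.29 for TIMP3 on 201149_s_at.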

How the results depend on the processing

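Of 20 member probe sets, the calls for OHT in knockdown cells went from 8 to 13 with dim probe sets left out, 15 with 6 groups and 13 with shFOXO707 alone. Calls for knockdown with OHT went from 3 to 10 with 6 groups, 10 with shFOXO33 alone and 5 with shFOXO707 alone. Calls for knockdown without OHT went from 3 to 6 with 6 groups and 9 with shFOXO33 alone. Calls in the interaction went from 1 to 2 with 6 groups and 2 with shFOXO33 alone. Leaving out 1 array at a time gave 12 to 14 calls for OHT in scrambled cells, 7 to 10 in knockdown cells, 3 to 3 for knockdown with OHT, 2 to 3 without OHT, 1 to 1 in the interaction and 5 to 9 between hairpins, with 5 reached without shFOXO707 replicate 1 with OHT. Where 1 array was left in a group, it was assumed to vary like the other groups. The share of all probe sets called under these fits is not given here. A gain or loss of calls among the members therefore cannot be told apart from a general one. The causes were not tested, except that fits with 6 groups leave the spread between hairpins out of the error. Of all single differences under an alternative, 1 reversed: TIMP1 with OHT in scrambled cells, at 0.14 with quantile normalization. Another 65 lost and 80 gained a call, and 2592 kept both direction and side of the threshold, uncalled differences near 0 that changed sign included.

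Same-numbered arrays correlated at -0.0019 to 0.053 in their deviations between scrambled groups, and differently numbered arrays at -0.052 to 0.025. Correlations this weak show no clear pairing by number but cannot exclude it. With the replicate number as a block, the calls among the member probe sets were 13 for OHT in scrambled cells, 3 for knockdown with OHT and 8 between hairpins. The share of all probe sets called with this block is not given here, so these counts cannot be read against it. No paired analysis was possible for the other comparisons because the hairpin arrays without OHT carry no number. Dim signals, such as MMP1 and ADAMTS1 with OHT, limit the size of their folds.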
